A study of Mus musculus with 8 samples.

Results

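Integrins and the other receptors that fix a fibroblast to its matrix were followed in stably transfected clones of the immortalised mouse embryo fibroblast line NIH3T3. The set was chosen by gene symbol: 26 named genes, plus any other symbol made of Itga or Itgb and a number, which added Itgb2 and Itgb6. All 28 were found among 24062 genes of the RNA-seq table, and 23 of them were among the 11482 genes with an adjusted p-value. The remaining 5 (Itga1, Itga2, Itga4, Itgb3 and Itgb6) had a mean level too low to be given one. Control clones 2 and 3 carried the control vector, and clones 10 and 12 carried FLAG-tagged 14-3-3ε from a p3xFLAG-CMV-10 plasmid, whose viral promoter drives the transgene. Every clone was selected with G418 at 800 µg/mL, grown in medium with 10% serum and measured by RNA-seq and RRBS (reduced representation bisulfite sequencing, a methylation assay of CpG-rich fragments). Each line grew from a picked colony, so a difference between clones and an effect of 14-3-3ε cannot be told apart well with 2 clones per group.

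An integrin is a heterodimer of an alpha and a beta subunit that spans the membrane. The alpha subunit mostly sets which matrix protein is bound, and the beta tail recruits talin and kindlin and links the receptor to actin. The discoidin receptors are collagen-activated tyrosine kinases, syndecans are transmembrane heparan sulphate proteoglycans that act beside integrins, Cd44 binds hyaluronan and dystroglycan binds laminin. In fibroblasts these receptors anchor the cell, sense stiffness and assemble fibronectin and collagen. Members of the 14-3-3 family bind phosphorylated partners, and phosphorylated tails of some integrin beta subunits are among them.

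Both tables hold the authors' own comparison and no value per clone, so values by sample and overlap between clones cannot be shown. Higher and lower mean 14-3-3ε clones relative to control clones, the usual sign of the tools used, which neither file states. Levels are mean normalized counts over all libraries; they grow with transcript length and are not compared between genes here. Ywhae, the mouse gene of 14-3-3ε, had a log2 fold change of -0.03 (standard error 0.18, adjusted p = 0.942) per the authors' deposited table, so the table showed no rise of the transcript of the introduced gene, and neither the sign nor the clone labels could be checked on it. The labels do not say whether reads of the introduced sequence count under this symbol, and the clones are named by their labels throughout. The fibroblast identity was checked on 10 marker genes, of which 9 had a mean normalized count above 100 and Fap was listed at 0. Of the 9 tested markers, 4 (Pdgfra, Pdgfrb, Col1a1 and Col1a2) rose and none fell. That is 44.4%, against 6.15% of all tested genes that rose, so some of these markers differed between the groups. Of 10 leukocyte markers 9 lay under 100, as did all 7 epithelial and all 6 endothelial markers. Of 4 platelet markers 3 lay under 100, and the integrin gene Itga2b had a mean normalized count of 247.6.

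To show the DNA at genes whose expression or methylation differed, the 250 bases upstream of the annotated start are given for 4 members, from RefSeq, build GRCm38.p6, 5′ to 3′ on the gene's strand. In the sequences of Itga11 (chr9:62677605-62677854, plus strand), Itgb5 (chr16:33829415-33829664, plus strand) and Itgb7 (chr15:102231936-102232185, minus strand; this start lies 1470 bp inside the gene span), capitals mark cytosines of either strand listed in the RRBS table. In that of Itga2 (chr13:114932101-114932350, minus strand), capitals mark cytosines called different at q under 0.05.
Itga11: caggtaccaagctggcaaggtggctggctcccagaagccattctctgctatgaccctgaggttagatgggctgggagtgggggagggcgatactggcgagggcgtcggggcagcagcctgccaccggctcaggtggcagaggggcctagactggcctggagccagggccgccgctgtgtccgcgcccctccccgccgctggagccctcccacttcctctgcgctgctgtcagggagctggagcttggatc
Itgb5: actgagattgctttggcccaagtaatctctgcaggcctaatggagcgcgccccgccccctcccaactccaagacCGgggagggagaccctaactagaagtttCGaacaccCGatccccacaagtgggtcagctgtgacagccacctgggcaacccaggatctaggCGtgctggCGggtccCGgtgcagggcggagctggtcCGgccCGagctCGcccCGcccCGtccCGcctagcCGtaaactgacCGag
Itgb7: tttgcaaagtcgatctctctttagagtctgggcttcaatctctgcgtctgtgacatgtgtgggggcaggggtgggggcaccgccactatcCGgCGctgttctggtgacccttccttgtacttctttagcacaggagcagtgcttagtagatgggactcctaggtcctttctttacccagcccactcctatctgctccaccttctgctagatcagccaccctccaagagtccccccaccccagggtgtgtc
Itga2: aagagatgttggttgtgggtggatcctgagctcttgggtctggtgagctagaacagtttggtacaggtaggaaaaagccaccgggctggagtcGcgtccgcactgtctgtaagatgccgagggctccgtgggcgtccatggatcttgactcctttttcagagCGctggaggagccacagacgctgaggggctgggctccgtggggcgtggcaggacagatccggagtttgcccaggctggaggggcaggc
The Itga11 sequence holds 12 CpGs and none of them was listed, so it has no capitals. Itgb5 has 18 CpGs with 28 listed cytosines and Itgb7 has 5 CpGs with 4 listed cytosines, and none of these was called. Itga2 has 12 CpGs, with 23 listed cytosines and 3 called.

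In expression, the collagen receptor subunit gene Itga11 had the largest change of these receptors. Itga11 and Itgb5 rose, the heparan sulphate proteoglycan gene Sdc2 rose less, and Itgb7 fell, while the other tested receptor genes did not pass the test. At an adjusted p under 0.05, 3 of 23 tested members rose (all tested genes: 6.15%) and 1 fell (all tested genes: 4.74%). Called in either direction were 17.4% of the tested members, beside 10.9% of all tested genes, and the first share rests on 4 genes. The median log2 fold change was 0.14 over the 23 tested members and -0.0027 over all tested genes. The median size of the change regardless of sign was 0.45 for members and 0.27 for all tested genes. A positive sign was found in 13 and a negative sign in 10.

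**Figure D1:**
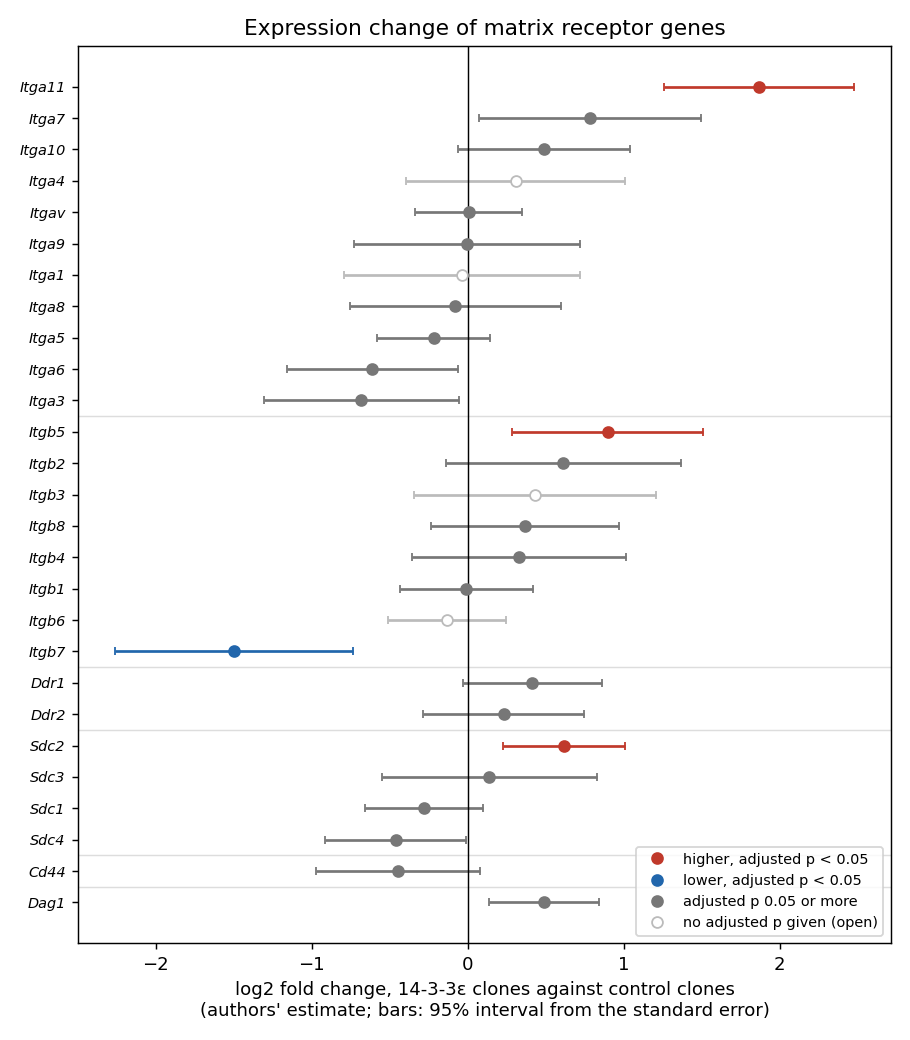
Log2 fold change of the 27 members with an estimate, grouped by role; points are the authors' estimates and bars 95% intervals computed from their standard errors. Itga11 (1.87) and Itgb7 (-1.50) lie farthest from 0, Itgb1 and Itgav lie near 0, and open points have no adjusted p.

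The collagen-binding alpha subunits are those of Itga1, Itga2, Itga10 and Itga11, all of which pair with the beta subunit of Itgb1. Itga11, whose product is a fibroblast receptor for fibrillar collagen, had a mean normalized count of 2030 and a log2 fold change of 1.87 (standard error 0.31) per the authors' deposited table. That is a 3.65-fold rise, with a 95% interval from 2.40 to 5.56, and the adjusted p was 1.77e-07 per the authors' deposited table. By size it ranked 58th among the 706 genes that rose. Itga10, a subunit best known from cartilage, had a log2 fold change of 0.49 (standard error 0.28) and adjusted p = 0.281 per the authors' deposited table. Itga1 had a mean normalized count of 16.0 and a log2 fold change of -0.04 (standard error 0.38) with no adjusted p per the authors' deposited table. Itga2 was listed at 0. Of the 4 collagen-binding subunits, then, Itga11 was called, Itga10 was not, and the other 2 were too low to be tested.

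Itga11 lies on chromosome 9 from 62677855 to 62783979 (GRCm38.p6), and no other protein-coding or long non-coding gene of the RefSeq gene table overlaps it. The nearest tested gene on the right, Fem1b, starts 7845 bp away and had a log2 fold change of 0.01 at adjusted p = 0.990 per the authors' deposited table. The nearest on the left, Anp32a, had one of -0.18 at adjusted p = 0.601 per the authors' deposited table. Neither of these nearest tested neighbours of Itga11 was called.

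The laminin-binding subunits gave estimates of opposite sign, none of them called. Itga3 had a log2 fold change of -0.68 (standard error 0.32) and Itga6 one of -0.61 (0.28), with adjusted p-values of 0.162 and 0.149 per the authors' deposited table. Itga7, which is known as the laminin receptor subunit of muscle, had one of 0.78 (standard error 0.36) at adjusted p = 0.153 per the authors' deposited table. The unadjusted p of these 3 was 0.0329, 0.0287 and 0.0302 per the authors' deposited table. Of all 23 tested members 9 had an unadjusted p under 0.05, or 39.1%, and of all tested genes 23.8% did. Itga7 overlaps Mettl7b and a predicted gene, so how reads were shared there is uncertain.

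Among subunits that recognise the RGD motif of fibronectin and vitronectin, the estimates were small. Itgav, the alpha partner of several beta subunits, had a mean normalized count of 10032 and a log2 fold change of 0.01 (standard error 0.18) per the authors' deposited table. Its 95% interval ran from -0.34 to 0.35, so a change of 2-fold in either direction lay outside it. Itga5, the main fibronectin receptor subunit, had a log2 fold change of -0.22 (standard error 0.18; adjusted p 0.509) per the authors' deposited table. For Itga8 it was -0.08 (standard error 0.34; adjusted p 0.926) per the authors' deposited table. The 95% interval computed from these ran from -0.75 to 0.60. Itga9, a receptor subunit for tenascin and other ligands, had one of -0.0033 at adjusted p = 0.998 at a mean normalized count of 60.3 per the authors' deposited table. Itga4, best known from leukocytes, had a mean normalized count of 9.08 and no adjusted p per the authors' deposited table.

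The beta subunits changed unequally. Itgb1, the common partner of the collagen, laminin and fibronectin receptors, had a mean normalized count of 21935 and a log2 fold change of -0.01 (standard error 0.22, adjusted p = 0.990) per the authors' deposited table. Its 95% interval ran from -0.44 to 0.42. Itgb5, which pairs with the alpha subunit of Itgav to bind vitronectin, rose, with a log2 fold change of 0.90 (standard error 0.31, adjusted p = 0.0402) per the authors' deposited table. In linear terms it was 1.86-fold higher, with a 95% interval from 1.22 to 2.85, and ranked 403rd among the genes that rose. Its call was lost, at adjusted p = 0.0605, when the adjustment ran over all 17478 genes with a p-value. Vtn, the vitronectin gene, had a mean normalized count of 2.72 per the authors' deposited table, so little of this ligand's transcript was seen in the clones.

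Itgb5 lies on chromosome 16 from 33829665 to 33949338, and no protein-coding or long non-coding gene of the RefSeq table overlaps it. Its nearest tested neighbour on the left, Heg1, also rose, with a log2 fold change of 0.58 (standard error 0.20) and adjusted p = 0.0434 per the authors' deposited table. On the right, Umps had a log2 fold change of -0.59 and adjusted p = 0.0962 per the authors' deposited table.

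Itgb7, whose product joins the alpha4 and alphaE subunits on lymphocytes, was the member that fell. It had a mean normalized count of 907 and a log2 fold change of -1.50 (standard error 0.39, adjusted p = 0.00278) per the authors' deposited table. This is 2.82-fold lower, with a 95% interval from 1.67 to 4.79, and it ranked 28th by size among the 544 genes that fell. The genes of its known alpha partners gave few reads: Itga4 had a mean normalized count of 9.08 and Itgae one of 56.8 per the authors' deposited table. The 10 leukocyte markers had mean normalized counts from 0 to 109.6, with a median of 8.38, and the highest was that of Cd68 per the authors' deposited table. Ptprc, the pan-leukocyte gene, had 10.2 and the T-cell gene Cd3e 0.246 per the authors' deposited table. The part of other cells in the Itgb7 value was not tested. Itgb7 lies on chromosome 15 from 102215994 to 102233405, and the gene Zfp740 ends 384 bp to its left. Zfp740 and, on the right, Rarg had log2 fold changes of -0.16 (adjusted p 0.723) and -0.54 (adjusted p 0.0621) per the authors' deposited table.

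None of the other beta subunit genes was called. Itgb8, which activates latent TGF-beta together with the alpha subunit of Itgav, had a log2 fold change of 0.37 (standard error 0.31; adjusted p 0.508) per the authors' deposited table. Itgb4, the hemidesmosome subunit, had one of 0.33 (standard error 0.35; adjusted p 0.627) per the authors' deposited table. The leukocyte subunit gene Itgb2 had a log2 fold change of 0.61 (standard error 0.38; adjusted p 0.331) at a mean normalized count of 180.4 per the authors' deposited table. Itgb3 and Itgb6 had mean normalized counts of 28.3 and 1.56 and no adjusted p per the authors' deposited table. Among the genes with a p-value, the median size of the log2 fold change was 0.06 at mean normalized counts under 10 and 0.26 at 100 or more, as moderated estimates give, so the folds of genes with few reads may be understated.

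Of integrin genes that the symbol pattern does not take in, Itga2b, the platelet subunit, had a log2 fold change of 0.63 (standard error 0.30; adjusted p 0.165) at a mean normalized count of 247.6 per the authors' deposited table. Itgae, the other gene of this kind that was tested, was not called either. In the authors' DESeq2 test 1 of the 2 had an unadjusted p under 0.05, beside 23.8% of all tested genes.

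Among receptors that are not integrins, 1 of 8 tested members (12.5%, against 6.15% of all tested genes that rose) rose and none fell, so the share rests on 1 gene. Sdc2, a syndecan that fibroblasts and other mesenchymal cells carry, had a mean normalized count of 4441 and a log2 fold change of 0.62 (standard error 0.20, adjusted p = 0.0240) per the authors' deposited table. It was 1.54-fold higher, with a 95% interval from 1.17 to 2.01, near the small end of the called rises (rank 651 of 706). Sdc1, known from epithelium and plasma cells, had a log2 fold change of -0.28 (standard error 0.19; adjusted p 0.396) per the authors' deposited table. Sdc4, the syndecan of focal adhesions, had one of -0.46 (standard error 0.23; adjusted p 0.200) and Sdc3 one of 0.14 (0.35; 0.863) per the authors' deposited table. The 4 syndecan estimates lay on both sides of 0, and the differences between them were not tested.

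Dag1, the gene for both dystroglycan subunits, came closest to the threshold without passing it, with a log2 fold change of 0.49 (standard error 0.18, adjusted p = 0.0562) per the authors' deposited table. Cd44 had a log2 fold change of -0.45 (standard error 0.27; adjusted p 0.306) per the authors' deposited table. The discoidin receptor genes Ddr1 and Ddr2 had values of 0.42 (standard error 0.23; adjusted p 0.246) and 0.23 (0.26; 0.657) per the authors' deposited table. The 95% interval of Ddr2 ran from -0.29 to 0.75, which leaves a rise of up to 1.68-fold possible.

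**Figure D2:**
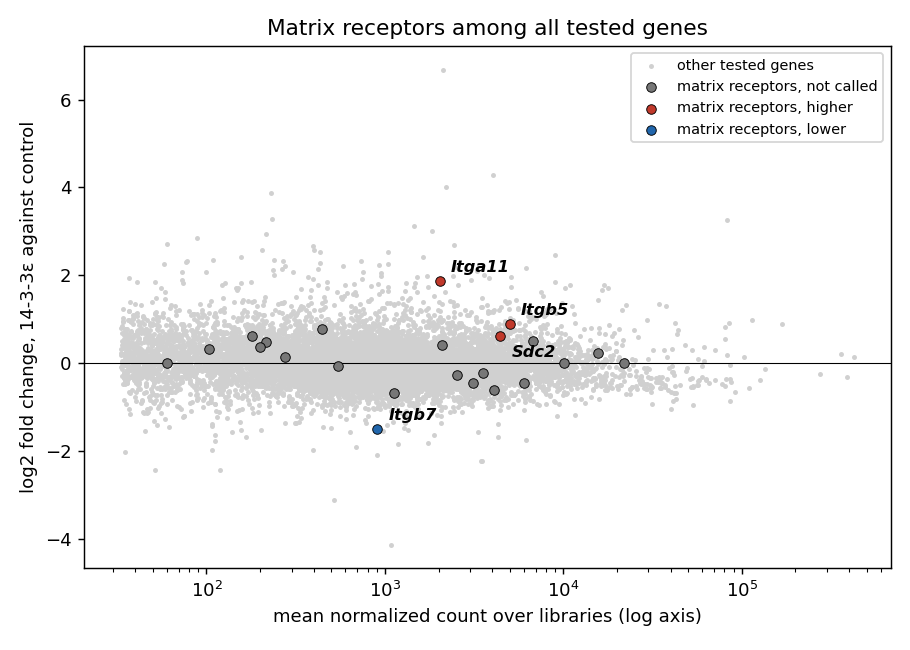
Log2 fold change against the mean normalized count (log axis) for all 11482 tested genes in grey and the 23 tested matrix receptors in colour. Itga11 lies at 1.87 and Itgb7 at -1.50, and the 19 receptors that were not called lie between -0.68 and 0.78.

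Genes that supply the ligands of these receptors were called more often than the receptors, though the difference was not tested. Of 41 genes for matrix ligands of integrins, 33 were tested, 15 rose and 3 fell (54.5%; all tested genes: 10.9%), and their median log2 fold change was 0.53. The largest rise was that of the collagen gene Col3a1, with a log2 fold change of 3.25 (standard error 0.35), and those next in size were of Nid2, Postn, Fbn1 and Tnc, at 2.19, 1.67, 1.62 and 1.33 per the authors' deposited table. Postn encodes periostin and Tnc tenascin-C, both ligands of integrins in remodelling matrix, Fbn1 encodes fibrillin-1 and Nid2 a basement membrane linker. Its paralogue Nid1 fell, with a log2 fold change of -0.74 (standard error 0.18; adjusted p 0.000908) per the authors' deposited table. Ctgf and Cyr61, matricellular ligands of integrins, were the other genes of the list that fell, with values of -1.76 and -0.93 per the authors' deposited table. The fibronectin gene Fn1 had a log2 fold change of 0.13 (standard error 0.25; adjusted p 0.807) per the authors' deposited table. The laminin chain genes Lama5 and Lamb2 rose, with log2 fold changes of 1.21 and 0.53 per the authors' deposited table, while no laminin-binding subunit gene was called.

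Inside the cell, 2 of 28 tested adhesion complex genes rose and 1 fell, with a median log2 fold change of 0.05. The share called, 10.7%, lay near the 10.9% of all tested genes. Nedd9, a scaffold of the p130Cas family that focal adhesion kinase phosphorylates, rose, with a log2 fold change of 1.77 (standard error 0.21, adjusted p = 3.93e-15) per the authors' deposited table. Ilk, the integrin-linked pseudokinase that binds beta tails, rose by 0.63 on the log2 scale (standard error 0.22; adjusted p 0.0438) per the authors' deposited table. Parvb, the gene of its partner beta-parvin, fell, with a log2 fold change of -0.80 (standard error 0.25; adjusted p 0.0180) per the authors' deposited table. Parva, that of alpha-parvin, had a log2 fold change of 0.30 at adjusted p = 0.288 per the authors' deposited table. The talin, vinculin and focal adhesion kinase genes Tln1, Vcl and Ptk2 had log2 fold changes of 0.34, 0.36 and 0.0045 and were not called per the authors' deposited table.

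Of 16 tested integrin partners, 2 rose and 1 fell (18.8%; all tested genes: 10.9%). Itgbl1, a secreted protein gene with repeats like those of integrin beta stalks, rose by 1.70 on the log2 scale (standard error 0.29; adjusted p 5.34e-07) per the authors' deposited table. The tetraspanin gene Cd63 rose by 0.78 (standard error 0.19; adjusted p 0.00162), and Plaur, whose product binds integrins laterally, was the gene that fell per the authors' deposited table. Of 16 tested genes of heparan sulphate proteoglycans and their enzymes, 2 rose and none fell (12.5%; all tested genes: 10.9%). These were the glypican gene Gpc4 (log2 fold change 1.26, standard error 0.34) and the betaglycan gene Tgfbr3 (0.84, 0.24) per the authors' deposited table.

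Of 11 tested genes that make, bind or degrade hyaluronan, 2 rose and 1 fell (27.3%; all tested genes: 10.9%). Cemip, a hyaluronan-degrading protein gene, and Tnfaip6, a hyaluronan-binding protein gene, had log2 fold changes of 1.25 and 0.89 per the authors' deposited table. Ezr, whose product ezrin links Cd44 to actin, fell, with a value of -0.62 (standard error 0.20, adjusted p 0.0274) per the authors' deposited table. Msn and Rdx, of the same list, had values of -0.03 (adjusted p 0.964) and 0.22 (adjusted p 0.488) and were not called per the authors' deposited table. None of 17 tested dystroglycan partners and glycosylation enzymes was called, nor any of 4 tested cell-surface ligands of integrins (all tested genes: 10.9%). At an unadjusted DESeq2 p under 0.05 the counts were 2 and 0 (all tested genes: 23.8%). Whether these small lists differ from those shares was not tested. Mrc2, a receptor that takes up collagen, rose by 1.06 on the log2 scale (standard error 0.25, adjusted p 0.000782) per the authors' deposited table. It was the 1 called of 4 tested matrix receptors outside the set (25%, beside 10.9% of all tested genes). These lists were drawn up with earlier results of these data known, so their counts are descriptions.

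**Figure D3:**
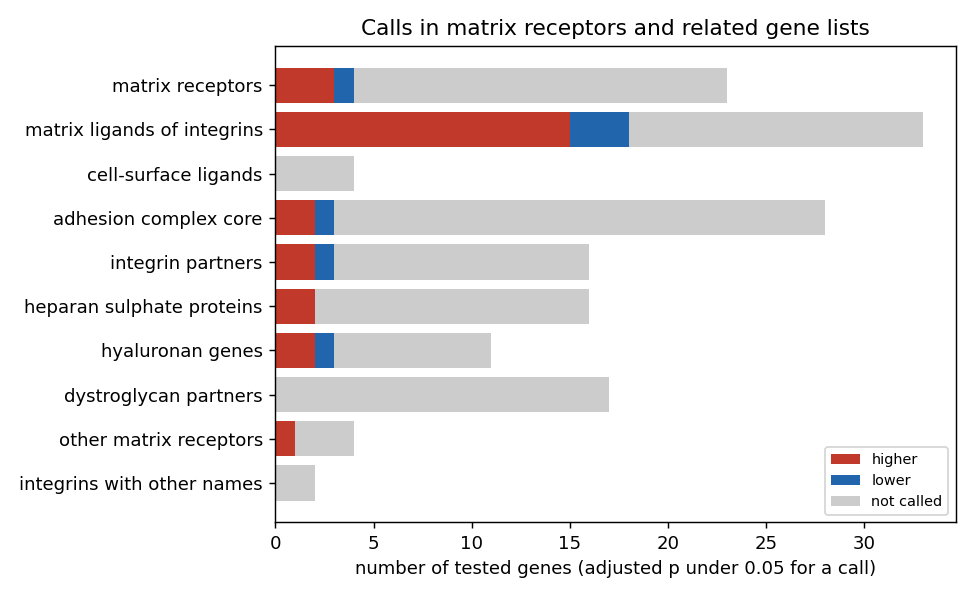
Number of tested genes that were higher, lower or not called in the matrix receptors and 9 related lists. Calls are most frequent among the matrix ligands of integrins (18 of 33), beside 10.9% of all tested genes. They are absent from the dystroglycan partners (0 of 17), the cell-surface ligands (0 of 4) and the integrins with other names (0 of 2).

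Methylation was compared around the start of each member, in a window of 1000 bp on each side. Methylation was higher downstream of the start of Sdc3 and lower at 3 cytosines of Itgb8, and the other members with enough data were not called. A window needed 5 or more listed cytosines, and was called if 3 or more of them, and no less than 10%, had q under 0.05 and all of these moved the same way. Of 28 members, 24 had at least 5 listed cytosines, 1 was called higher (all genes: 1.17%) and 1 lower (all genes: 2.05%; both directions: 3.21%). In 10 of the 24 windows (41.7%) no cytosine was called, as in 42.4% of windows over all genes. The median of the mean difference was -0.117 percentage points for members and -0.117 for all genes. The windows of Cd44, Itga9, Itga10 and Itgb6 held 4 listed cytosines or fewer. The starts in the RefSeq promoter table lie inside the gene span for some members, by 104983 bp for Itga9, 21892 bp for Ddr2, 2094 bp for Itgav and 1470 bp for Itgb7. With the window moved to the 5′ end of the span, a setting chosen after seeing the data, the called windows were again those of Sdc3 and Itgb8. There Itga9 had 60 listed cytosines, of which 4 were higher and 3 lower with a mean difference of 5.78 points, and Ddr2, Itgav and Itgb7 had 0. For Itga6, Itga7, Itgb2, Itgb3, Itgb4 and Sdc2 the window was centred on the end of the gene with more listed cytosines. No strand was assigned to these genes here, so whether that end is the 5′ one was not determined.

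Sdc3, on chromosome 4 from 130792537 to 130826318, had 100 listed cytosines around its start, of which 15 were higher and none lower, with a mean difference of 6.58 points. Of these, 14 lay close together, between 255 and 340 bp downstream of the start. There 28 listed cytosines in a row, from 250 to 340 bp, all had a positive difference, and their mean was 20.1 points. The remaining call lay 131 bp upstream of the start and was the only upstream cytosine called. The 15 called differences ran from 17.4 to 35.9 points over 10 CpGs. Expression of Sdc3 was not called, and the 95% interval of its log2 fold change ran from -0.55 to 0.83.

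Itgb8, on chromosome 12 from 119162803 to 119238276, had 3 lower cytosines of 16 listed, all between 408 and 427 bp downstream of its start, with differences from -31.6 to -18.2 points. No cytosine was listed upstream of its start. This call rests on the smallest number of cytosines that the rule allows. It was lost with q under 0.01, and also when called cytosines had to differ by 25 points or more.

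Itga2, listed at 0 in expression, showed a local fall that the window rule did not call because it also held calls in the other direction. Between 124 bp upstream and 6 bp downstream of its start, 16 listed cytosines in a row had negative differences, with a mean of -24.8 points, and 4 of them were called. The called pair 88 and 87 bp upstream, the capital CG in the sequence above, had differences of -72.1 and -42.8 points. A cytosine 157 bp upstream, the single capital letter, was higher by 20.4 points, and another 156 bp downstream by 23.1 points. Farther upstream, up to 1494 bp from the start, 4 of 9 cytosines of a 1 kb window were higher, with a mean difference of 10.2 points. Signs changed along this promoter, with lower values next to the start and higher values on either side.

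**Figure D4:**
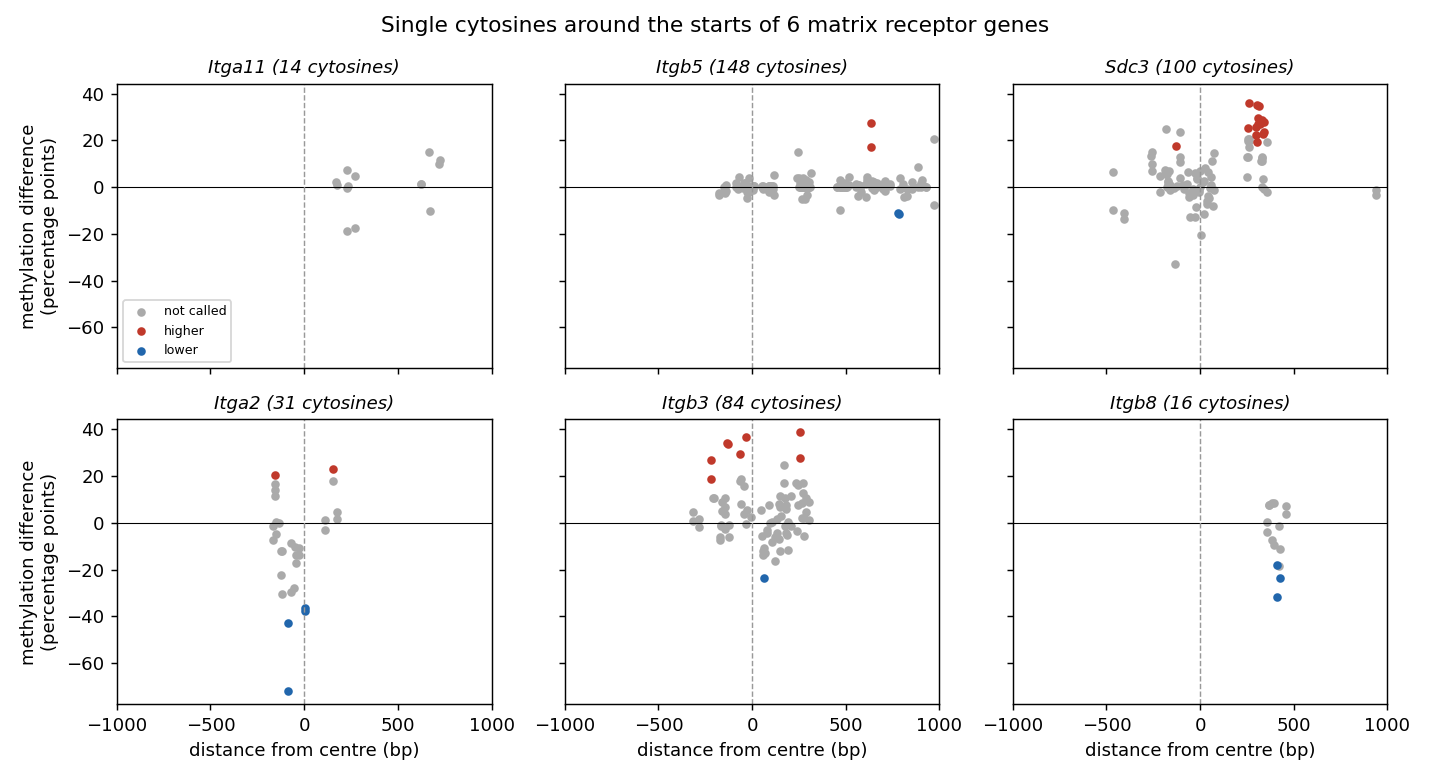
Difference in methylation (percentage points) of each listed cytosine against its distance from the start in 6 members, with called cytosines coloured. For Itgb3 the distance is from the lower-coordinate end of the gene span, which may be its start. Calls of Sdc3 crowd between 255 and 340 bp, those of Itga2 change sign around the start, and Itga11 has none among 14 cytosines.

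In Itgb3, which had a low transcript level, 8 cytosines were higher and 1 lower of 84 listed, with a mean difference of 4.76 points. Higher ones lay from 219 bp before to 258 bp after position 104608000 on chromosome 11, with differences from 18.7 to 38.7 points. This position is the lower-coordinate end of the Itgb3 span, which runs to 104670476. No strand was assigned to Itgb3 here, so this end may be its 5′ start. In Itga3, 8 were lower and 1 higher of 103, and the lower ones lay between 116 bp upstream and 186 bp downstream of the start. The mean over the Itga3 window was -0.162 points. In Itga1, 3 cytosines were higher and 2 lower of 32.

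At the start of genes whose expression was called, few cytosines differed. Itga11 had 0 called of 14 listed, all of them downstream of the start. Its mean difference was 0.538 points. Itgb7 had 0 called of 6 around its start inside the gene span, and no listed cytosine within 1000 bp of the 5′ end of the span. Itgb5 had 2 higher and 2 lower of 148, all between 634 and 782 bp downstream, and a mean of 0.530 points. Sdc2 had 1 lower of 46, with a difference of -5.44 points. None of these 4 windows was called, and RRBS listed no cytosine in the 250 bases upstream of Itga11, so methylation there was not analysed here.

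**Figure D5:**
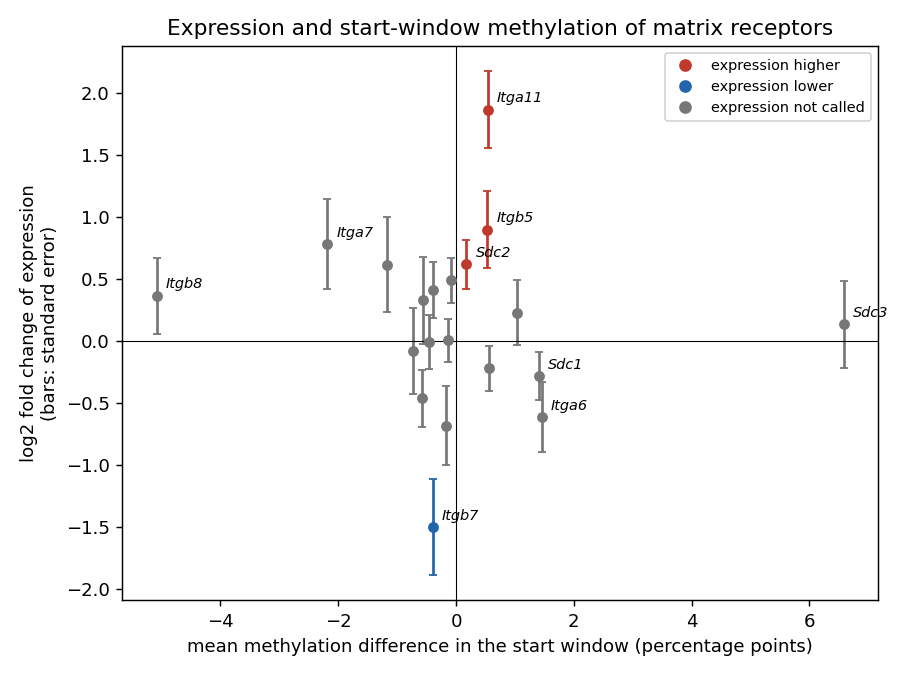
Log2 fold change of expression (bars: standard error) against the mean methylation difference of the start window for the 20 members with at least 5 listed cytosines and an adjusted p for expression. The 4 members called in expression lie within 1 point of 0 on the methylation axis, and Sdc3 and Itgb8, the windows called in methylation, were not called in expression.

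Over whole gene spans, 3510 cytosines were listed in members, of which 62 (1.77%; all cytosines: 1.92%) were higher and 78 (2.22%; all cytosines: 2.83%) lower. In fixed windows of 1 kb that touched a member or the 5000 bp on either side, 6 of 221 were called higher (all windows: 1.07%) and 3 lower (all windows: 2.38%; both directions: 3.45%). They belonged to 8 members. Those of Sdc3, Itgb8 and Itga1 lay at the start, and that of Itgb3 at the lower-coordinate end of its span, which may be its start. That of Itga2 lay upstream of the gene, with calls from 1454 to 1494 bp from its start. The others lay in Itgb4, in Itga9 and next to Itga3. In Itgb4 6 of 43 cytosines were lower between 116004723 and 116004999 on chromosome 11, with a mean of -6.98 points over the window. Itga9, on chromosome 9, held a higher window from 118665001 to 118666000 (3 of 8 cytosines) and a lower one from 118814001 to 118815000 (5 of 22). That next to Itga3 ran from 95041001 to 95042000 on chromosome 11, beyond the far end of the gene, with 4 of 38 cytosines higher. Itgb4 overlaps Galk1 in the RefSeq table, so its RNA reads and those of Galk1 may be hard to separate.

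The promoters of these receptors held more CpGs at the median than promoters of all genes. Of 22 members with a RefSeq promoter of 300 bases, the median number of CpGs was 13, beside 7 over 27025 genes, and it ran from 2 for Ddr2 to 44 for Sdc3. The GC box GGGCGG, searched on both strands, was found in 13 of 22 member promoters and in 35.9% of all promoters. The letters CCAAT on either strand stood in 3 of 22 and in 38.0% of all, and TATAAA in 1 of 22, that of Ddr2, and in 14.2% of all. The AP-1 letters TGANTCA were found in 1 of 22, that of Itga9, and in 7.92% of all promoters. The Ddr2 and Itga9 promoters are those of starts inside the gene span, as are those of Itgav and Itgb7. Of the 4 members whose upstream bases are shown, the letters GGGCGG stood on either strand in the 300-base promoters of Itgb5 and Itga2. They did not stand in those of Itga11 and Itgb7. The match of Itga2 does not lie within its printed upstream bases.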

How the data were processed

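RNA-seq and RRBS of 2 control and 2 14-3-3ε clones each were analysed from 1 table per assay. Trim Galore, Bismark, Bowtie2, methylKit, TopHat2, HTSeq and DESeq2 and build mm10 are named, without role or setting, per the submitters' processing notes. Expression levels are a signal, deposited by the authors with the column name that DESeq2 gives to mean normalized counts. The authors deposited, per gene, a log2 fold change with its standard error, a score equal to their ratio, a p-value and, for some genes, an adjusted p. Fold changes shrink in genes with few reads, as moderated estimates do. In the RRBS table a p-value, a q-value and another value, the difference in percent methylation, were deposited by the authors for each cytosine. The sources used here give neither coverage, pooling of clones nor depth per sample, so there are no counting intervals.

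Here, exact duplicate lines (253) were removed, which left 2361680 cytosines. Intervals are the estimate ± the normal quantile at 95% times the standard error, and p-values are the authors'. For RNA-seq, the intervals and p-values measure the spread between these clones. Whether the RRBS p-values and q-values measure that spread is not known, because pooling of clones is not stated. Starts came from the RefSeq promoter table (GRCm38.p6), the most upstream one it lists per gene, which can lie inside the gene span, else from the gene table. All 277792 listed cytosines in its promoters fell on a C or G as their strand requires, so the builds matched. All members are named, and of other lists at most the 5 largest calls per direction. Some further genes of those lists, the called Lama5 and Lamb2 among them, are named outside this rule. Members and lists were chosen with earlier results of these data known. The scripts were tested on simulated data. Python 3.11.15, pandas 2.3.3 and scipy 1.17.1 were used.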

Additional observations from a re-analysis of the deposited data

How the results depend on the processing

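Counts of members that rose or fell were recomputed under 6 settings and those of called windows under 7 (starts, 1 of them, the 5′ end of the gene span, chosen after seeing the data) and 3 (1 kb). With an adjusted p under 0.01, and likewise with a change of at least 2-fold required as well, 1 member rose (Itga11) in place of 3. Over all tested genes 413 and 331 rose under these settings, in place of 706. Itgb7 was the 1 member that fell under every setting run. Over all tested genes 252 fell at 0.01 and 122 with the 2-fold limit, in place of 544. With an adjusted p under 0.10, Dag1 was called as well, and 944 of all tested genes rose in place of 706. Centring on the median of tested genes changed no call and no sign among the 23 tested members. The other settings left the fold changes as they were, so they could not change a sign. With q under 0.01, 0 start windows were lower, and 3 of the 1 kb windows were higher and 1 lower. With called cytosines limited to differences of 25 points or more, 2 of the 1 kb windows were higher and 1, at Itga2, lower, and the lower start window was that of Itga2 in place of Itgb8. Sdc3 was the higher start window under every setting run. The share of all windows called under the changed settings is not given here, so these window counts describe the members only. No paired analysis was possible because the tables hold no value per clone, and for the same reason no clone could be left out and no library could be set aside.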
